A study of Mus musculus with 8 samples.

Results

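The apolipoproteins examined here are encoded by 10 mouse genes, Apoa1, Apoa2, Apoa4, Apoa5, Apob, Apoc1, Apoc2, Apoc3, Apoe and Apoh. Their estrogen-related receptor α (ERRα) peaks were taken from 4 ChIP-seq peak lists as those annotated to one of these gene names with a centre at most 20 kb from the annotated transcription start site (TSS). This gave 42 of the 63890 peaks that lie within 20 kb of a TSS in the 4 lists, and 68 peaks of these genes were found at any distance. At least 1 of the lists held a peak within 20 kb for 9 of the 10 genes, as for 66.7% of all RefSeq protein-coding genes. Apoh had none.

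ERRα was immunoprecipitated from whole liver and from hindlimb muscle, the gastrocnemius with the soleus, of wild-type (WT) mice and of ERRα 3SA mice, in which 3 phosphorylation sites of the amino-terminal domain of ERRα are inactivated throughout the animal. All 4 groups were on the C57BL/6N background, at 2 to 3 months of age, and the methods give males and zeitgeber time 9 h for the collection of tissue. The livers of 2 mice or the muscles of 5 mice were pooled per genotype, so a list describes a pool of animals. Each genotype and tissue had 1 list, and therefore no difference below has a replicate check or a p-value. The lists held 21813 peaks in WT liver, 29040 in ERRα 3SA liver, 25427 in WT muscle and 50647 in ERRα 3SA muscle. They carry no read numbers, so the depth behind a peak is unknown. Because peak scores depend on the library, each peak is described by its rank within its own list. A top 10% peak is thus among the 10% of that list with the highest scores, and tied scores take the best rank.

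Apolipoproteins are the protein components of lipoprotein particles, which carry triglyceride and cholesterol through the blood. The liver makes most of them, APOB forms the backbone of very-low-density and low-density lipoproteins, and the smaller exchangeable apolipoproteins control lipases, receptors and cholesterol transfer. Skeletal muscle is a consumer of lipoprotein fatty acids and is not a major source of these proteins. ERRα is an orphan nuclear receptor that binds the ERR response element (ERRE), TCAAGGTCA, and is best known for genes of mitochondrial energy metabolism.

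The ERRE was the sequence searched for first. On the mm10 (GRCm38) assembly it occurred at 4 places in the liver peaks of these genes, 1 each at Apoa2, Apoa4, Apoa1 and Apoc1. The surroundings of those at Apoa2, Apoa1 and Apoa4 are printed as examples of a called peak that holds the element of ERRα. Letters are those of the RefSeq GRCm38.p6 sequence, read 5′ to 3′ on the minus strand, with the element in capitals. The Apoa2 stretch is chr1:171223988-171224088, the Apoa1 stretch chr9:46210049-46210149 and the Apoa4 stretch chr9:46243780-46243880.
Apoa2: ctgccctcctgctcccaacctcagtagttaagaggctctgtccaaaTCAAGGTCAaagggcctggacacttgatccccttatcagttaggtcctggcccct
Apoa1: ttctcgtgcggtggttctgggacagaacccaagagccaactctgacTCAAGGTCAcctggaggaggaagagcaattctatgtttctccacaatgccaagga
Apoa4: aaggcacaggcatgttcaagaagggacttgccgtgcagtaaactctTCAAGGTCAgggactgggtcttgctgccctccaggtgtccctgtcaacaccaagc
The Apoa2 and Apoa4 elements lay in peaks called in ERRα 3SA liver without a WT partner. The Apoa1 element, in an intron of the neighbouring gene Sik3, lay in a peak called in both genotypes.

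Members with a promoter peak in WT liver alone were Apob and Apoa5, and the bases before their starts are printed to show what these peaks covered. The Apob stretch is chr12:7977427-7977628 and the Apoa5 stretch chr9:46268358-46268607, both on the plus strand. Capitals mark the bases inside the called WT liver peak, 68 of 202 for Apob and 230 of 250 for Apoa5.
Apob: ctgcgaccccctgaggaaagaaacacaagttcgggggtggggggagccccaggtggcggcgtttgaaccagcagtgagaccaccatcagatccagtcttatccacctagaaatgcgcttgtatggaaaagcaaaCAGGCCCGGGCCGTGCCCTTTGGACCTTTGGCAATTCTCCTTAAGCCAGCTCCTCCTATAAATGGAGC
Apoa5: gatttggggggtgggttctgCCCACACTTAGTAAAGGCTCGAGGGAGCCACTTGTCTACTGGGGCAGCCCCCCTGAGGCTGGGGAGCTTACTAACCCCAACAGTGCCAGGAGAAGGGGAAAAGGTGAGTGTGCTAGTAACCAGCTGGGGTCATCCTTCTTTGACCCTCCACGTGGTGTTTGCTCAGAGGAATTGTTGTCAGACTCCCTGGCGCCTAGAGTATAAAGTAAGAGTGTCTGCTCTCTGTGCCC
Neither stretch held the shorter core AAGGTCA on either strand.

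In liver, 7 of the 10 genes had a peak within 20 kb in WT (70.0%, 95% Wilson interval 39.7 to 89.2) and 8 in ERRα 3SA (80.0%, 49.0 to 94.3). The shares of all 21900 RefSeq protein-coding genes with a peak were 29.9% for the WT and 37.7% for the ERRα 3SA liver list. In muscle, 5 genes had a peak in WT (50%, 23.7 to 76.3) and 4 in ERRα 3SA (40.0%, 16.8 to 68.7), beside 34.5% and 47.9% of all genes. The apolipoproteins thus stood above all genes in both liver lists and in WT muscle, and below them in ERRα 3SA muscle, although the muscle intervals include the share of all genes. These intervals cover counting error over the 10 genes only, and several of the genes are neighbours.

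**Figure D1:**
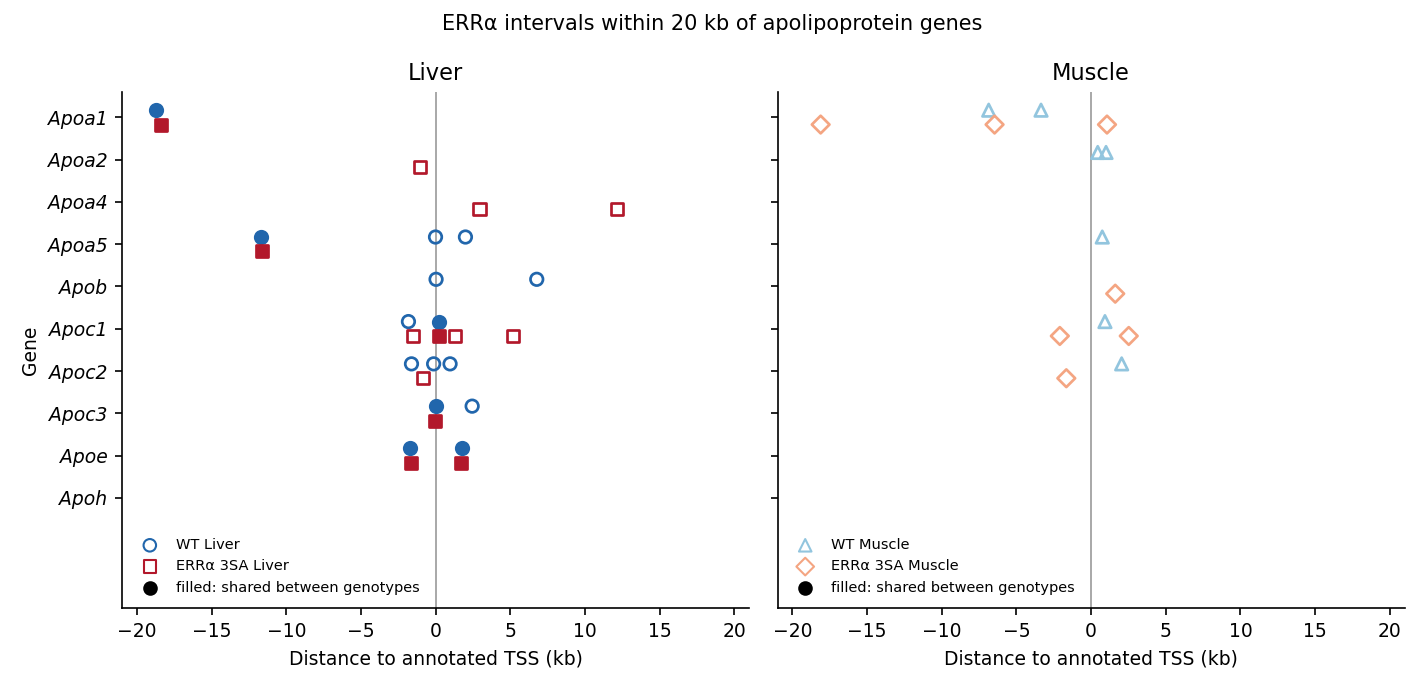
Position of each called ERRα peak within 20 kb of the 10 apolipoprotein genes, in kb from the annotated TSS, for liver (left) and muscle (right); filled symbols have a partner in the other genotype. The filled symbols are all in liver, at Apoa1, Apoa5, Apoc1, Apoc3 and Apoe, and 0 of the 14 muscle peaks are filled.

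Both liver genotypes had a peak at 6 genes, Apoa1, Apoa5, Apoc1, Apoc2, Apoc3 and Apoe, and 22.7% of all genes had one in both. A peak was counted as shared where a centre of the other genotype lay within 300 bp. By this rule 5 of these 6 genes held a shared liver peak, Apoc2 being the exception, beside 17.3% of all genes. Apob had liver peaks in WT alone, and Apoa2 and Apoa4 had them in ERRα 3SA alone. Of the member peaks, 6 of 15 in WT liver (40.0%) and 6 of 13 in ERRα 3SA liver (46.2%) were shared, against 49.2% and 34.2% of all peaks within 20 kb. Counting any overlap of bases instead gave 9 of 15 and 8 of 13. The share of all peaks by this looser rule was not computed, so these counts cannot be set against the shares above.

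In muscle, 3 genes, Apoa1, Apoc1 and Apoc2, had a peak in both genotypes, beside 25.6% of all genes. None of these peaks was shared. Over all genes 10.4% had a shared muscle peak. Sharing was found for 0 of 7 WT and 0 of 7 ERRα 3SA member peaks (Wilson interval 0 to 35.4% in each), and 23.4% and 12.9% of all muscle peaks within 20 kb were shared. At this number of peaks a difference from all muscle peaks was not detectable.

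Ranks of the member peaks were moderate. None of the liver peaks and 1 of the 14 muscle peaks, at Apoa1 in WT, was in the top 10% of its list, with ties at the best rank. Over all genes, 5.14% and 6.78% had a best peak in the top 10% of the WT and ERRα 3SA liver lists. The muscle shares were 5.76% and 9.75%, so at 10 genes these counts do not set the members apart. The median over genes of the best peak was top 28.5% for WT liver and top 32.1% for ERRα 3SA liver, and over all genes with a peak it was 37.6% and 34.0%. In muscle the medians were 39.1% in WT and 19.6% in ERRα 3SA, with 39.1% and 23.7% over all genes. Scores under 50 were held by 8 of 15 WT liver peaks, 4 of 13 ERRα 3SA liver peaks, 6 of 7 WT muscle peaks and 7 of 7 ERRα 3SA muscle peaks. For comparison, 57.7%, 52.6%, 81.8% and 82.3% of all peaks within 20 kb scored under 50. The lowest score of its list was held by 2 of 7 WT and 1 of 7 ERRα 3SA muscle member peaks, and by no liver one. Because ties take the best rank, these appear below as top 66.4% and top 64.8%, although no peak of the list scored lower. Such ties held 8534 WT and 17824 ERRα 3SA muscle peaks.

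**Figure D2:**
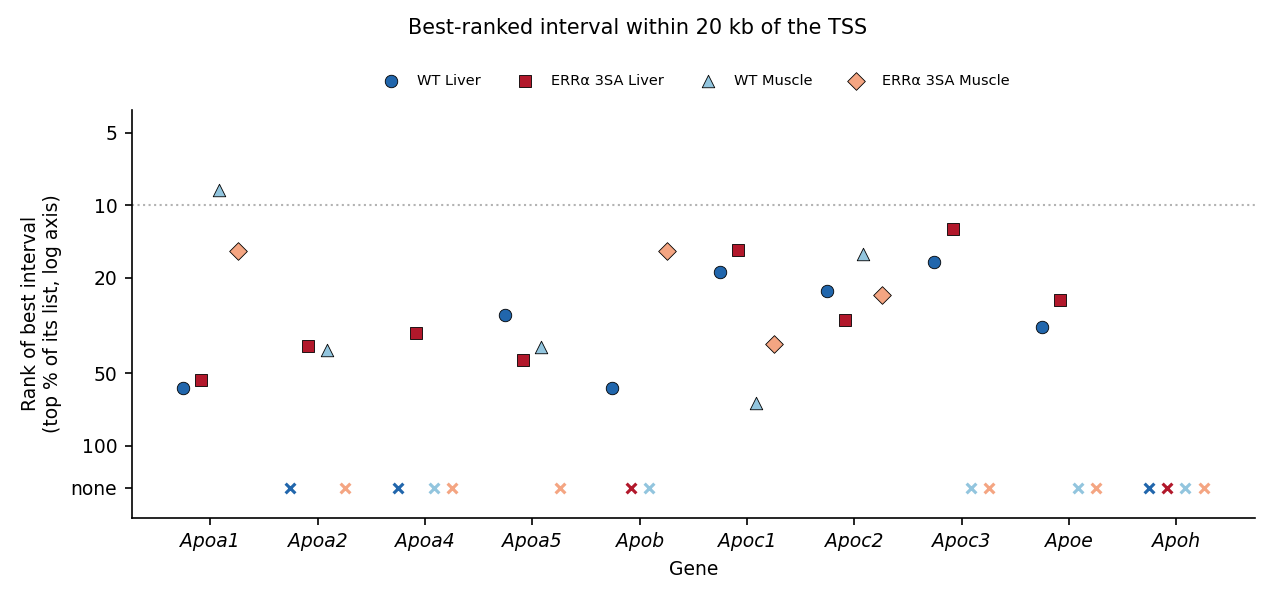
Best-ranked ERRα peak of each apolipoprotein gene within 20 kb, as top percentage of its own list on a log axis with better ranks upward; crosses mark genes without a peak and the dotted line the top 10%. Only the WT muscle peak of Apoa1, at 8.63%, lies above the line, and Apoc3 and Apoc1 lead in both liver lists.

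The members' liver peaks lay close to the start sites. In WT liver 11 of 15 (73.3%, Wilson interval 48.0 to 89.1) were within 2 kb of the TSS, against 29.6% of all peaks within 20 kb. In ERRα 3SA liver 8 of 13 were (61.5%, 35.5 to 82.3), against 31.0%. Muscle gave 4 of 7 in WT and 3 of 7 in ERRα 3SA, against 33.4% and 24.7%. Peaks annotated as promoter numbered 4 in WT liver, at Apob, Apoc2, Apoc3 and Apoa5, and 2 in ERRα 3SA liver, at Apoc2 and Apoc3. These were 26.7% and 15.4% of the member peaks, against 11.0% and 12.0% of all peaks within 20 kb, and both Wilson intervals (10.9 to 52.0 and 4.33 to 42.2) include the latter shares. Muscle had none, against 11.9% and 8.18% of all WT and ERRα 3SA muscle peaks within 20 kb. Since a peak belongs to its nearest start, close spacing of the cluster genes limits these distances by construction.

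Apoc3 and then Apoc1 held the best-ranked peaks of the members in both liver lists. Apoc3 encodes an inhibitor of lipoprotein lipase and of the uptake of triglyceride-rich remnants. Its promoter carried a WT liver peak at chr9:46235261-46235929 (rank 3771, top 17.3%), centred 41 bp after the TSS. The ERRα 3SA liver peak at chr9:46235354-46235958 (rank 3649, top 12.6%) was centred 20 bp before the TSS, and the centres were 61 bp apart. Both spanned a pair of AAGGTCA cores, at positions 46235378 and 46235798 on the plus strand, without a full ERRE. A second WT peak at the end of the gene, chr9:46232577-46233140, was weak (top 75.0%, 1 of 5013 peaks with that score). Neither muscle list had a peak for Apoc3. The 5 protein-coding genes most like Apoc3 over the 4 lists, by Euclidean distance of the log10 top percentages with 100% where no peak was found, were Tnfsf12, Dkk2, Wif1, Zfp455 and Aspa, at distances from 0.0032 to 0.034. As follows from this choice, they too had liver peaks in both genotypes and no muscle peak within 20 kb.

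Apoc1, whose product modulates lipolysis and lipid exchange between particles, had a peak in all 4 lists. The exon peak 239 bp after the TSS in WT liver, chr7:19692169-19692671, ranked 4147 (top 19.0%). Its ERRα 3SA counterpart, chr7:19692173-19692758, ranked 4455 (top 15.3%), and the centres were 45 bp apart. Both covered an AAGGTCA core. The second site, upstream of the gene, was narrow in WT liver, at chr7:19694330-19694639 (310 bp, top 28.5%). In ERRα 3SA liver it was a single wide peak, chr7:19693112-19695243 (2132 bp, top 34.0%). Both contained the same ERRE at chr7:19694437-19694445, but the centres were 307 bp apart, just past the sharing limit. ERRα 3SA liver had further Apoc1 peaks at chr7:19687328-19687609 and chr7:19690907-19691852 (top 43.2% and 65.0%). In muscle, the WT peak chr7:19691440-19692025 (top 66.4%) and the ERRα 3SA peaks chr7:19689627-19690649 and chr7:19694497-19695012 (top 38.7% and 37.9%) lay at different places. Among member peaks within 20 kb, the last of these was the only muscle peak with a centre within 300 bp of a liver peak of either genotype. Its partner was the upstream WT liver peak.

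Apoc2, the activating cofactor of lipoprotein lipase, was likewise called in all 4 lists. WT liver had 3 peaks, at chr7:19676805-19677153 in the first intron (top 57.4%), chr7:19677436-19678725 at the promoter (top 98.0%) and chr7:19679180-19679944 in an intron of Apoc4 (top 22.8%). ERRα 3SA liver had a single promoter peak of 2245 bp, chr7:19677659-19679903 (top 30.1%), which overlapped the latter pair. Its centre was 701 bp or more from theirs, so none counted as shared. The muscle peaks, chr7:19671647-19672101 in WT (top 16.0%) and chr7:19675436-19675725 in ERRα 3SA (top 23.7%), did not overlap.

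Apoa5 encodes an activator of intravascular triglyceride lipolysis. A site upstream was shared in liver, with a WT peak 11722 bp before the TSS at chr9:46256470-46257302 (top 28.5%) and an ERRα 3SA peak at chr9:46256614-46257349 (top 43.9%) whose centres were 95 bp apart. The WT promoter peak printed above in part, chr9:46268378-46268815, and an exon peak, chr9:46270454-46270746, were both weak (top 75.0%). WT muscle had an intronic peak, chr9:46268900-46269810 (top 39.1%), and ERRα 3SA muscle had none.

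Of the apolipoproteins that serve as receptor ligands and structural backbone, Apoe was shared in liver and Apob was not. Apoe, the ligand by which remnants bind low-density lipoprotein receptors, carried a pair of liver sites in each genotype and no muscle peak. The site in its last exon was called at chr7:19696409-19696851 in WT (top 32.1%) and chr7:19696286-19697179 in ERRα 3SA (top 44.8%). The upstream site, annotated at the end of Tomm40, was called at chr7:19700709-19701101 in WT (top 32.6%) and chr7:19700378-19701300 in ERRα 3SA (top 24.9%). The upstream site had an AAGGTCA core in both genotypes. Thus the order of the Apoe sites by rank differed between the genotypes, and 1 library each gives no spread by which to judge it.

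Apob had liver peaks in WT alone. They lay at the promoter, chr12:7977561-7977844 (top 57.4%), and in intron 6, chr12:7984325-7984564 (top 75.0%). Its single muscle peak was in ERRα 3SA, in exon 3 at chr12:7979088-7979498 (top 15.5%), with an AAGGTCA core. None of the 3 contained a full ERRE.

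Among the apolipoproteins of high-density lipoprotein, Apoa1 had a shared liver peak and Apoa2 and Apoa4 did not. Apoa1, the main protein of high-density lipoprotein and activator of cholesterol esterification, had 1 liver peak within 20 kb in each genotype. These were at chr9:46209541-46210317 in WT (top 57.4%) and chr9:46209956-46210474 in ERRα 3SA (top 53.4%), 18701 and 18415 bp upstream in Sik3, and both covered the ERRE printed above. In muscle Apoa1 had its best peak in WT at chr9:46221590-46221955 (rank 2194, top 8.63%), 6858 bp upstream in the last intron of Sik3. Its score was held by 505 peaks (1.99% of the list), so giving ties their worst rank instead would place it just outside the top 10%. A weaker WT muscle peak lay at chr9:46225087-46225468 (top 40.2%). The ERRα 3SA muscle peaks were chr9:46210138-46210900 in an exon of Sik3 (top 15.5%), chr9:46222013-46222320 in the 3′ untranslated region of Sik3 (top 23.7%) and chr9:46229177-46230212 (top 64.8%). The WT and ERRα 3SA muscle peaks nearest to each other had centres 394 bp apart and did not overlap.

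Apoa2, the second protein of high-density lipoprotein, had an ERRα 3SA liver peak at chr1:171223888-171224149 (top 38.6%), centred 1036 bp before a start site and holding the ERRE printed above. WT muscle had peaks at chr1:171221521-171222494 (top 40.2%) and chr1:171225837-171226270 (top 66.4%). Apoa4, a component of chylomicrons and high-density lipoprotein, was called in ERRα 3SA liver alone, at chr9:46243319-46244228 beyond the gene end (top 53.4%), with the ERRE printed above, and at chr9:46252770-46253201 (top 34.0%). Apoh, a phospholipid-binding plasma glycoprotein also called β2-glycoprotein I, had a single annotated peak in any list, in WT muscle 25002 bp upstream at chr11:108370136-108370454 (top 66.4%). That peak had the lowest score of its list.

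The 20 kb limit bears mostly on Apoa1. The 3 member peaks just inside it were those of Apoa1 at 18111, 18415 and 18701 bp. Just outside lay an ERRα 3SA liver peak of Apoa1 at 20066 bp, a WT liver peak of Apob at 20663 bp and another ERRα 3SA liver peak of Apoa1 at 21198 bp. Farther out in Sik3, at 27282 bp, was the best-ranked liver peak annotated to Apoa1, chr9:46200129-46202568 in WT (rank 3204, top 14.7%). In ERRα 3SA liver that interval overlapped chr9:46200865-46201229 (top 37.7%) and chr9:46201607-46202742 (rank 5225, top 18.0%).

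All but 3 of the genes sit in clusters, so peaks were also read by place. The chromosome 9 cluster of Apoa1, Apoc3, Apoa4 and Apoa5 spans 43.3 kb and the chromosome 7 cluster of Apoc2, Apoc4, Apoc1 and Apoe spans 29.7 kb. Member peaks of the chromosome 9 cluster numbered 6 for WT liver and 5 for ERRα 3SA liver, 3 of them shared in each, and 3 in each muscle list. The chromosome 7 cluster had 7 in each liver list, again with 3 shared, and 2 and 3 in WT and ERRα 3SA muscle. With the same number of peaks, the bases covered on chromosome 7 were 4053 for WT liver and 8008 for ERRα 3SA liver. The median width of all members' peaks was 443 bp in WT and 736 bp in ERRα 3SA liver, whereas over all peaks within 20 kb it was 461 and 449 bp. Apoa2, Apob and Apoh, outside the clusters, had no shared peak in either tissue.

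**Figure D3:**
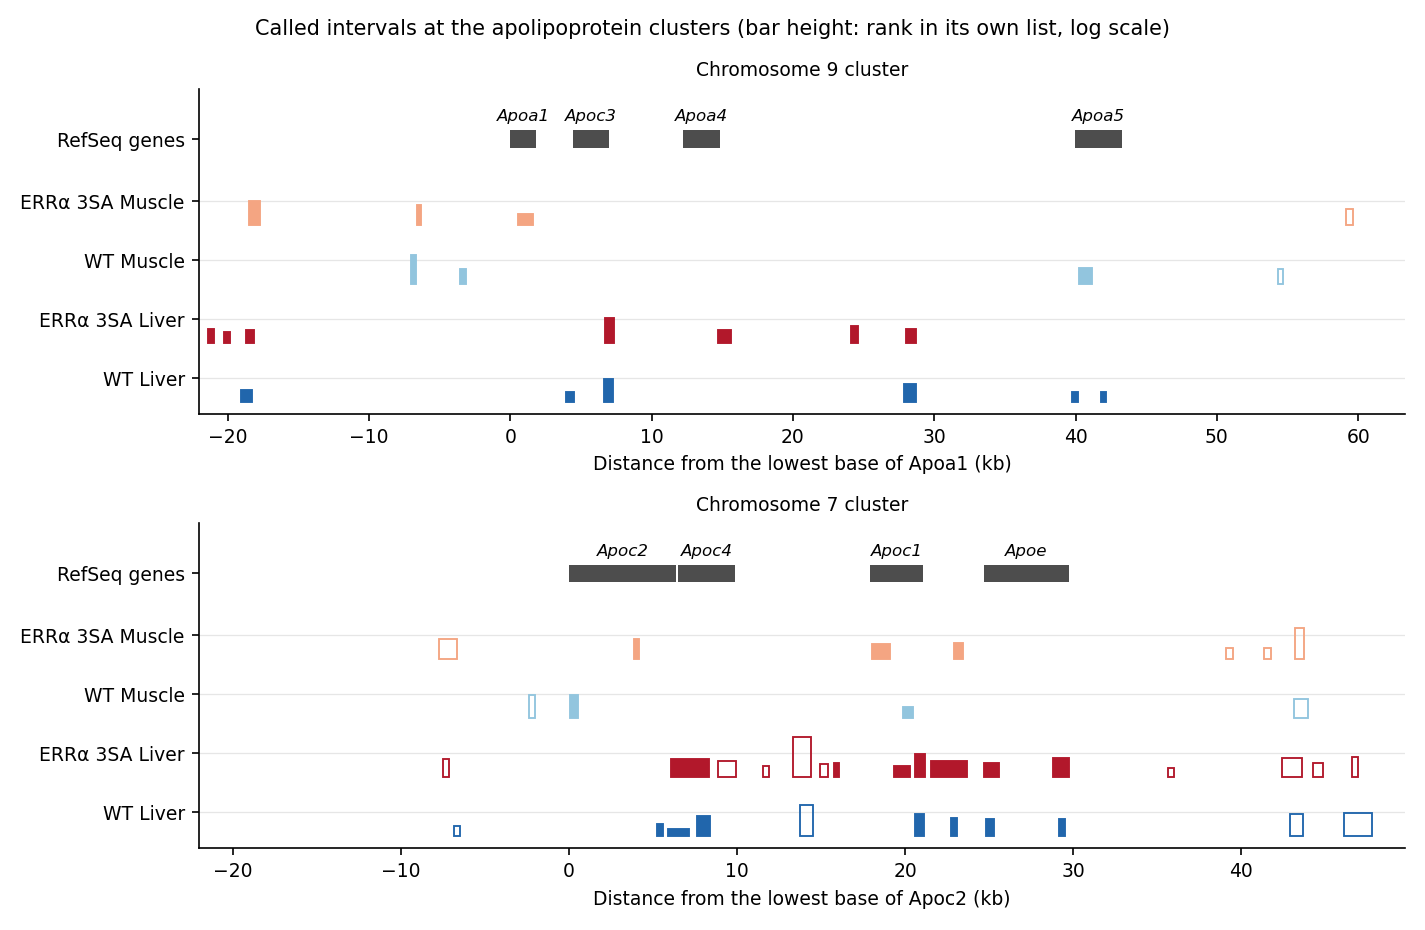
Called ERRα peaks over the chromosome 9 and chromosome 7 apolipoprotein clusters, by distance in kb from the lowest base of Apoa1 or Apoc2; filled bars are annotated to a member at any distance, outlined bars to another gene within 20 kb of a member's start, and bar height grows with rank on a log scale within each list. The tallest liver bars on chromosome 7 are outlined ones between Apoc4 and Apoc1.

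The best-ranked liver peaks at these loci were annotated to neighbouring genes, which was seen only once the values were known. Between Apoc4 and Apoc1, a peak at chr7:19685339-19686105 ranked 1443 in WT liver (top 6.62%), annotated to Apoc4. Its shared ERRα 3SA partner at chr7:19684923-19685998 ranked 654 (top 2.25%) and was annotated to the Apoc4-apoc2 readthrough. Their centres were 6937 and 7199 bp from the start of Apoc1 and 7781 and 7519 bp from that of Apoc2, and neither held an ERRE or an AAGGTCA core. Beside Apoa2, peaks in Fcer1g, which encodes an Fc receptor subunit, ranked 183 in WT liver at chr1:171232205-171233143 (top 0.839%) and 395 in ERRα 3SA liver at chr1:171232180-171233103 (top 1.36%). These were 7620 and 7587 bp from an Apoa2 start. A further Fcer1g site closer to Apoa2, chr1:171229630-171230725 in WT liver (top 4.85%) and chr1:171229778-171230550 in ERRα 3SA liver (top 7.48%), contained an ERRE at chr1:171229998-171230006. The ERRα 3SA muscle peak chr1:171229850-171230230 (top 23.7%) held the same ERRE. Within reach of Apoh, 19641 bp from its start, lay an ERRα 3SA liver peak annotated to Cep112, chr11:108416829-108417079 (top 65.0%), also with an ERRE. In all, 7 WT and 14 ERRα 3SA liver peaks within 20 kb of a member's RefSeq start were annotated to other genes, with 6 shared in each list. Counting them for every member in reach gave 9 of 10 genes in both liver lists, 8 in WT muscle and 9 in ERRα 3SA muscle, and 8 genes with a shared liver peak. Over the 21774 protein-coding genes with a RefSeq start on a chromosome the same assignment gave 44.8% for WT liver, 52.9% for ERRα 3SA liver, 50% for WT muscle, 63.9% for ERRα 3SA muscle and 28% for a shared liver peak.

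Sequence content was compared with all peaks within 20 kb, over the central 300 bp and on both strands. In WT liver the ERRE, TCAAGGTCA, was in 1 of 15 member peaks (6.67%, Wilson interval 1.19 to 29.8), against 15.2% of all peaks. In ERRα 3SA liver it was in 3 of 13 (23.1%, 8.18 to 50.3), against 14.9%. In muscle it was in 0 of 7 member peaks in each genotype (Wilson interval 0 to 35.4%), against 4.45% of the WT peaks and 4.86% of the ERRα 3SA peaks within 20 kb. Both liver intervals include the share of all peaks. Over the whole called interval the liver counts were 2 of 15 and 4 of 13. The share of all peaks over the whole interval was not computed, so these counts have no like comparison.

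The core AAGGTCA, which is contained in the ERRE, was found in 4 of the 15 WT liver peaks and 7 of the 13 ERRα 3SA liver peaks of the members, against 35.8% and 35.5% of all peaks. CAAAGTCCA, a motif of the hepatocyte nuclear receptor HNF4α, was in none, against 0.544% and 0.652%. The ERRE reversed without complementing, ACTGGAACT, served as control and was in no member liver peak, against 0.481% and 0.422%. Of the members, 8 matched the RefSeq promoter table, with 12 promoters from 250 bp before to 50 bp after the start. None held an ERRE or CAAAGTCCA, which occurred in 0.423% and 0.475% of 32851 promoters, and 1, of Apoa2, held AAGGTCA, as did 4.72% of all. Apoc1 and Apoc3 had no entry among these promoters. The AAGGTCA core at chr9:46235798-46235804, upstream of the Apoc3 start, is therefore outside this count. Member peaks had a median GC content of 54.5% for WT liver and 52.9% for ERRα 3SA liver, beside 51.1% and 51.4% of all peaks within 20 kb.

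By centres within 300 bp, the tissues shared few member sites. A partner in the other tissue's list of the same genotype or the other was found for 1 of 15 WT liver, 0 of 13 ERRα 3SA liver, 0 of 7 WT muscle and 1 of 7 ERRα 3SA muscle member peaks. Over all peaks within 20 kb it was found for 31.2%, 27.6%, 21.5% and 18.6%. The Wilson intervals of the liver counts, 1.19 to 29.8% and 0 to 22.8%, lay below these shares. Those of the muscle counts, 0 to 35.4% and 2.57 to 51.3%, included them. Further member peaks overlapped in bases without counting by the rule of centres. The ERRα 3SA muscle peak of Apoa1 at chr9:46210138-46210900 overlapped both liver peaks of Apoa1 within 20 kb. The WT muscle peak of Apoc1, chr7:19691440-19692025, overlapped the ERRα 3SA liver peak chr7:19690907-19691852. Beyond 20 kb, muscle peaks of Apoa1 and Apob also had liver partners by centre. Overlap in bases between tissues was not counted over all peaks.

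The rest of the lipoprotein pathway was read from a list of 35 genes for assembly, lipases, receptors, high-density lipoprotein and sterol export. Of these, 17 (48.6%) had a peak within 20 kb in WT liver, 23 (65.7%) did so in ERRα 3SA liver, and 12 (34.3%) held a shared liver peak. The shares of all genes were 29.9%, 37.7% and 17.3%. In muscle 10 had a peak in WT (28.6%) and 26 in ERRα 3SA (74.3%), with a shared peak at 2 (5.71%). Over all genes these shares were 34.5%, 47.9% and 10.4%. By annotated gene, the ERRα 3SA muscle list therefore reached most of the pathway genes but 4 of the 10 apolipoproteins, and this list was also the longest. Assigned to every RefSeq start within 20 kb, its peaks reached 9 of the 10, beside 63.9% of all genes. The pathway genes were not counted in muscle that way. By role, assembly genes had a peak in 5 of 7 cases in WT liver, 6 in ERRα 3SA liver, 0 in WT muscle and 4 in ERRα 3SA muscle. Receptor genes gave 4, 5, 5 and 8 of 8, lipase genes 3, 5, 1 and 6 of 8, and genes of high-density lipoprotein and sterol export 5, 7, 4 and 8 of 12.

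**Figure D4:**
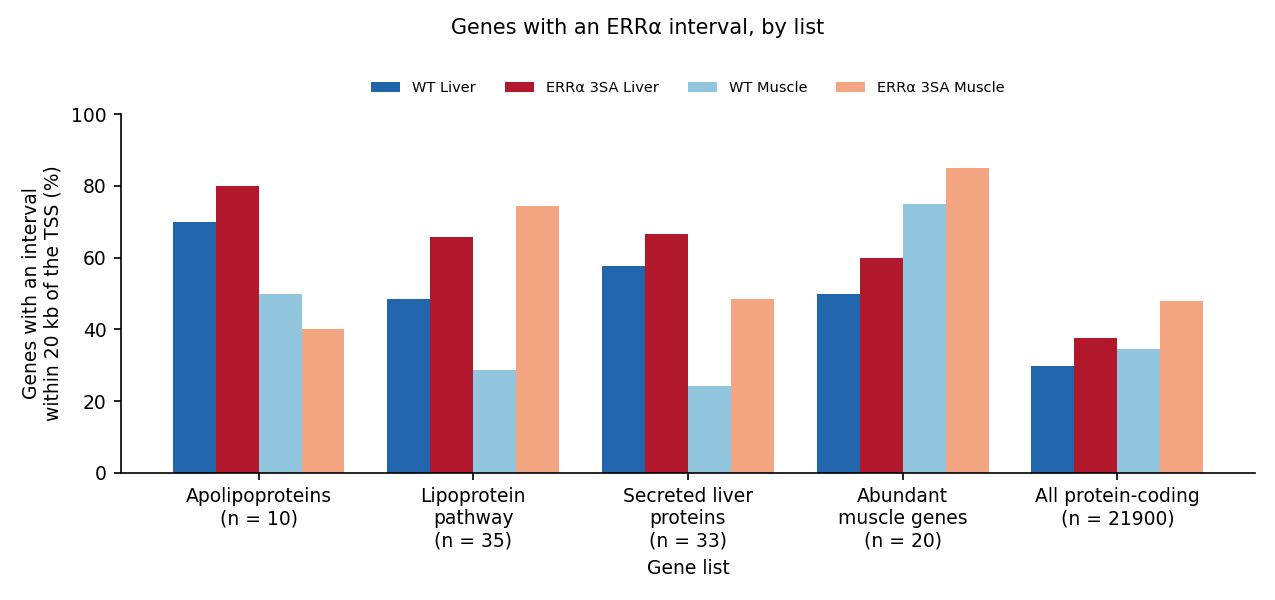
Percentage of genes with an ERRα peak within 20 kb of the TSS in each of the 4 lists, for the 10 apolipoproteins, the lipoprotein pathway, secreted liver proteins, abundant muscle genes and all protein-coding genes. The apolipoprotein bars are highest in liver (70 and 80%), whereas the abundant muscle genes are highest in muscle (75 and 85%).

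The best-ranked pathway peaks in WT liver were those of Scarb1, the high-density lipoprotein receptor (top 5.07%), Lipc, hepatic lipase (top 6.28%), and Pon1, a paraoxonase carried on high-density lipoprotein (top 7.54%). In ERRα 3SA liver they were those of Scarb1 (top 3.90%), Apof, an apolipoprotein and lipid transfer inhibitor (top 3.94%), and Angptl8, a regulator of lipoprotein lipase (top 5.05%). Each ranked better than any peak annotated to the 10 genes in the same list. In the muscle lists, peaks in the top 10% were found at Abca1 in WT (top 8.63%) and at Abcg1 in WT (top 7.10%) and ERRα 3SA (top 3.50%), among others. The Abca1 peak was tied with the WT muscle peak of Apoa1, so the worst rank for ties would place it too just outside the top 10%. ABCA1 and ABCG1 export cellular cholesterol.

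Genes of other abundant tissue products were set beside the members. Of 33 secreted liver proteins such as albumin and fibrinogen, 19 and 22 had a peak in WT and ERRα 3SA liver (57.6% and 66.7%), 10 with a shared liver peak, and 8 and 16 had one in WT and ERRα 3SA muscle. Of 20 abundant muscle genes such as Acta1 and Ckm, 10 and 12 had a liver peak and 15 and 17 a muscle peak in WT and ERRα 3SA (75.0% and 85.0% in muscle), with 9 shared in muscle. Their best muscle peaks had medians of top 7.10% in WT and 3.17% in ERRα 3SA, against 37.6% and 34.8% in liver. Over all genes, 29.9% and 37.7% had a peak in WT and ERRα 3SA liver and 34.5% and 47.9% in muscle. A shared peak was held by 17.3% in liver and 10.4% in muscle. The secreted liver proteins in muscle (24.2% and 48.5%) were below or near these shares. Medians over all genes with a peak were top 39.1% and 23.7% in muscle and 37.6% and 34.0% in liver. The lists record binding, so the tissue labels could not be checked by expression.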

How the data were processed

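ERRα ChIP-seq peak lists from 4 samples were used, and the 4 input samples hold no values used here. According to the methods and the submitters' processing notes, reads were trimmed (Trimmomatic 0.36), mapped to mm10 (BWA 0.7.12) and stripped of duplicates (Picard 2.0.1), and peaks were called against input (MACS2 2.1.1.20160309, FDR under 0.001) and annotated (HOMER 4.9.1). The labels give 3 pooled ChIPs per sample, the methods 4. The deposited peak score is a whole number of at least 30, comparable within a list only. The deposited GC and CpG columns are fractions despite a percent sign in their headers, and GC was recomputed from GRCm38.p6 and was equal for all but 1 to 3 peaks per list. The deposited intervals vary in width, and their centres were used.

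Peaks of the 10 genes within 20 kb of the TSS were counted, ranked (ties at the best rank) and paired between lists by centres within 300 bp. All genes means 21900 RefSeq protein-coding genes matched by Entrez ID. Motifs were searched on both strands with pysam 0.24.0, numpy 2.4.6 and pandas 2.3.3 (Python 3.11.15), and figures drawn with matplotlib 3.10.9. Sharing and motif searches were tested on simulated data. Wilson intervals at 95% (scipy 1.17.1) cover counting error only. No significance test was made, since each group has 1 library. Alternatives covered the score minimum, distance, list length, gene assignment and sharing rule. Every member is named. Named pathway genes are the 3 with the best-ranked peak in each liver list and those with a top 10% muscle peak, of which 1 is not reported here. Members, lists and rules were chosen with earlier results of these data known.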

Additional observations from a re-analysis of the deposited data

How the results depend on the processing

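Of 91 values recomputed under an alternative, 68 stayed within 1.5 times the reported value or within its counting error and 23 moved. Requiring a score of at least 50 left 1 gene with a peak in WT muscle (Apoa1), 0 in ERRα 3SA muscle, 7 of the 15 WT liver member peaks and 2 of the 4 liver peaks with an ERRE. Requiring at least 100 left 0 genes in WT liver, WT muscle and ERRα 3SA muscle and 2 in ERRα 3SA liver (Apoc1 and Apoc3). At that minimum there were 0 WT and 2 ERRα 3SA liver member peaks, 0 genes with a shared peak, 0% of ERRα 3SA peaks shared, 0 liver peaks with an ERRE, a median of top 14.0% for the best ERRα 3SA liver peak and 11 pathway genes with a liver peak in place of 23. The share of WT liver peaks and the WT median could then not be computed.

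A limit of 5 kb left 3 genes with a shared liver peak. Assigning each peak to every RefSeq start within 20 kb gave 8 genes in WT muscle, 9 in ERRα 3SA muscle, 8 with a shared liver peak, 27 ERRα 3SA liver peaks, medians of top 17.3% and 12.6% for the best WT and ERRα 3SA liver peaks, and 7 liver peaks with an ERRE. Trimming the longer list of each tissue to the length of the shorter one, a 50 kb limit and the other sharing distances moved none of these results by that rule. The rule is wide at such small counts. Centres within 100 and 1000 bp gave 26.7% and 60% of WT and 30.8% and 61.5% of ERRα 3SA liver member peaks as shared. Trimming gave a median of top 42.7% for the best ERRα 3SA liver peak. No paired analysis was possible because each genotype and tissue has 1 list and no result comes from a test. With 10 genes, 1 library per group and no read numbers, genotype differences and differences between libraries cannot be told apart.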
